A study of Mus musculus with 93 samples.

Results

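This account describes how the cortex of *Chd8* mutant males differed from that of their wild-type (WT) littermates at 12 months of age, after exposure to deltamethrin (DM) before birth and until weaning. The members were chosen by the age, exposure and sex in the sample labels: 10 heterozygous *Chd8*V986*/+ (HET) and 10 WT males, 1 of each genotype from each of 10 litters, which are 20 of the 93 libraries of the series. HET and WT mice of the same litter had the same exposure, since they shared a dam. The WT C57BL/6J dams, bred to *Chd8*V986*/+ sires, ate DM at 3 mg/kg in peanut butter every 3 days from the day of the vaginal plug until postnatal day (PND) 22, and the cortex of 1 hemisphere was taken at 12 months. The litters, given by the letters A, F, G, J, L, M, P, Q, U and V, fell into 4 processing batches, and both mice of a litter were in the same batch and came from the same dissector. The allele is carried in the heterozygous state in every cell of the body, so the bulk cortex does not show in which cells a difference arose, and fewer cells of a type and less RNA per cell cannot be told apart. Oil-exposed males of the same age (9 HET and 9 WT, 1 pair in each of 9 other litters) were used for values set beside those of the DM litters, as were mice of PND 5 exposed to DM until that age (10 HET and 12 WT, males and females).

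CHD8 is an ATP-dependent chromatin remodeler that binds near the start sites of many active genes, and loss of 1 copy is among the most frequently found single-gene causes of autism spectrum disorder. Deltamethrin is a type II pyrethroid insecticide. Pyrethroids hold voltage-gated sodium channels open, and the *Scn* genes encode these channels in neurons.

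The deposited values are read counts after a variance-stabilizing transformation, on a log2 scale, from which the authors had removed technical terms such as batch and litter. That removal shifted genes by unequal amounts, for which reason levels are compared between mice for 1 gene and never between genes. It cancels between littermates, and each difference below is a HET mouse minus its WT littermate, averaged over 10 litters, in log2 units. Raw counts were not used here, and sequencing depth per mouse is unknown. A gene was tested if no DM litter had its mice tied within 0.001, as happens when both are at the floor of the transformation, and this left 15522 of 24528 genes. By this filter 21 of 24 excitatory neuron, 23 of 24 inhibitory neuron and 24 of 24 astrocyte markers were tested. limma fitted each gene with the litter as a block. Genes whose p stayed under 0.05 after Benjamini-Hochberg adjustment, made over every gene in the test, are described as called, and each adjusted p below comes from limma.

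*Chd8* itself was lower in the HET mouse of every litter. Its lowest, median and highest levels were 11.00, 11.35 and 11.95 in HET mice, against 11.79, 11.99 and 12.62 in WT mice. The 2 ranges overlapped, while littermates stood apart in the same direction in each of 10 pairs. Levels differed between batches: HET mice were at 11.95 and 11.89 in batch 2 but at 11.14 and 11.00 in batch 1. WT mice were at 12.62 and 12.52 in batch 2 and at 11.95 and 11.79 in batch 1. Within each batch every HET mouse lay below every WT mouse. Ranges of levels over all mice, here and below, can thus hold differences between batches. The difference was −0.69 (SE 0.037, adjusted p = 5.69e-06), from −0.83 in litter Q to −0.49 in litter P, and *Chd8* had the smallest p of all genes tested. The gene lies at chr14:52198151-52257780 on the minus strand of mm10. Within 1 Mb on either side, 12 genes were tested, of which *Arhgef40* (0.19, SE 0.046, adjusted p = 0.0335) and *Zfp219* (0.38, SE 0.088, adjusted p = 0.0321) were higher and *Hnrnpc* (−0.12, SE 0.031, adjusted p = 0.0423) was lower. Of all genes tested, 7.09% were called. After the adjustment for GC and exon length described below, *Hnrnpc* stood at −0.078 (adjusted p = 0.0994). *Arhgef40* (adjusted p = 0.0486) and *Zfp219* (adjusted p = 0.0417) kept their calls.

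**Figure D1:**
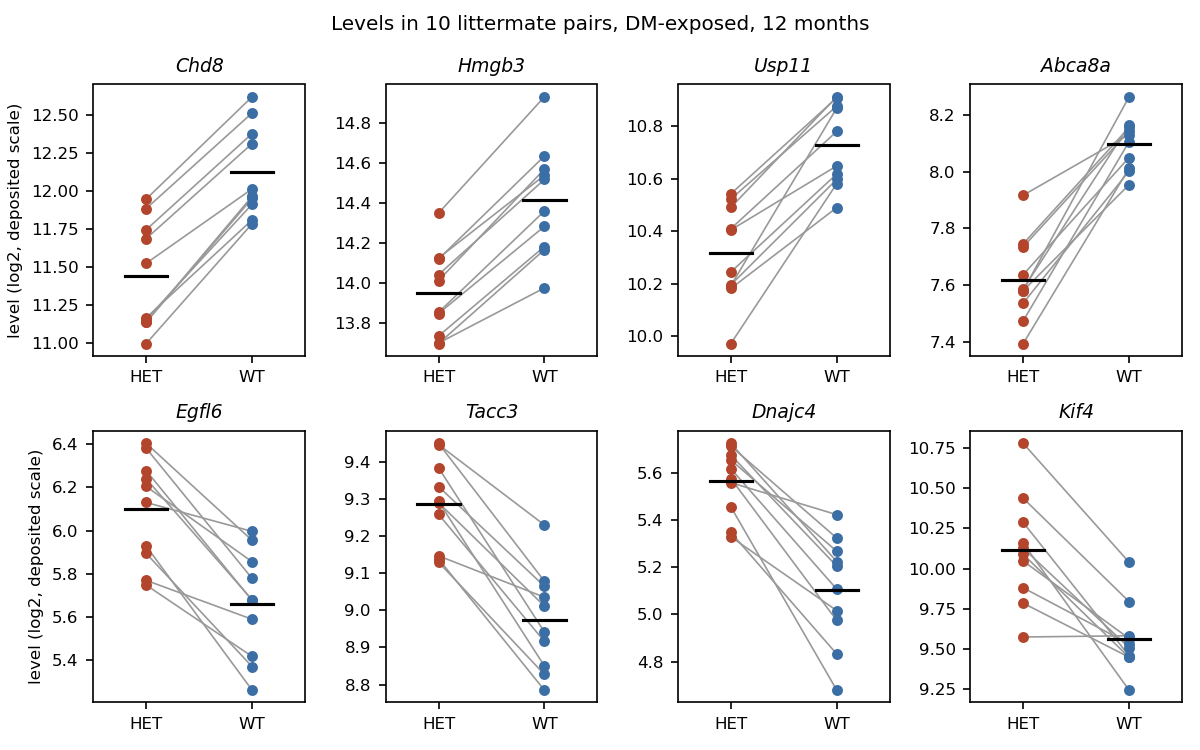
Levels of 8 genes in DM-exposed HET (left, red) and WT (right, blue) males of 12 months, on the deposited log2 scale. Points are mice (n = 10 per genotype), grey lines join littermates and black bars are means. *Chd8*, *Hmgb3*, *Usp11* and *Abca8a* were lower in the HET mouse of all 10 pairs, *Egfl6*, *Tacc3* and *Dnajc4* were higher in all 10, and *Kif4* was higher in 9.

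Across all genes, 1100 of 15522 (7.09%) were called. In HET mice 601 genes (3.87%) were higher and 499 (3.21%) were lower than in WT littermates. With batch in place of the litter as a term 243 were called, and without batch 1, 2, 3 or 4 the litter fit called 46, 30, 52 or 299. The differences were small: the median size of a called difference was 0.19, and 249 called genes reached 0.25, a 1.19-fold difference. All 10 litters had the same sign in 204 of the genes called higher and in 210 of those called lower, against 233 (1.5%) and 275 (1.77%) of all genes tested. At an unadjusted p under 0.05 there were 4326 genes. The median over all genes tested was −0.012.

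The number of calls depended on which litters were in the fit. Without litter A, F, G, J, M, Q or U it was 279, 356, 299, 301, 403, 230 or 493, and without litter V it was 2097 (13.5%). Without litter L or P it was 1018 or 1185. Litter V stood apart: across genes its differences had a correlation of −0.05 with the mean of the other 9 litters, which themselves ranged from 0.11 to 0.42. These correlations share the libraries of the same 10 litters and are a description only. Litter V was singled out from these same data, and the removal of litter V raised the number of calls most. Counts of lists without litter V, given below, are thus a description too. They were not made without each other litter, where most fits called fewer genes. *Chd8* was lower in the HET mouse of litter V too, at −0.64, within the range of the other litters. With all litters and without each in turn, the same 200 genes were called every time, 125 higher and 75 lower.

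The differences moved with the base composition of the transcripts. In the quintile of genes with the highest GC content (55.6 to 72.5% of transcript bases), 311 genes were called higher and 16 lower, with a median difference of 0.077. In the quintile with the lowest (31.0 to 43.9%), 27 were higher and 173 lower, with a median of −0.057. In the oil litters, which share no mice with the DM litters, the medians of these quintiles were 0.065 and −0.046. Length moved too. Exon length is that of all exons of a gene merged. The quintile of genes with the shortest exon length had a median of 0.031 with 182 genes higher and 37 lower. The quintile with the longest had a median of −0.051 with 52 higher and 189 lower. In single litters the correlation of the difference with GC, across genes, ran from −0.19 in litter V to 0.46 in litter M. When a quadratic trend on GC and exon length was taken out of each litter's differences, an alternative chosen after seeing the data, 698 of 15364 genes (4.54%) were called, 400 higher (2.6%) and 298 lower (1.94%), of which 553 were also called without it. All 1089 called genes with a known length and GC kept their sign. The part of base composition in the gene lists below was not tested otherwise, and counts after this adjustment are given with the lists that had calls. Every list count stands beside 3.87% of all genes called higher and 3.21% lower, or 2.6% and 1.94% after the adjustment.

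**Figure D2:**
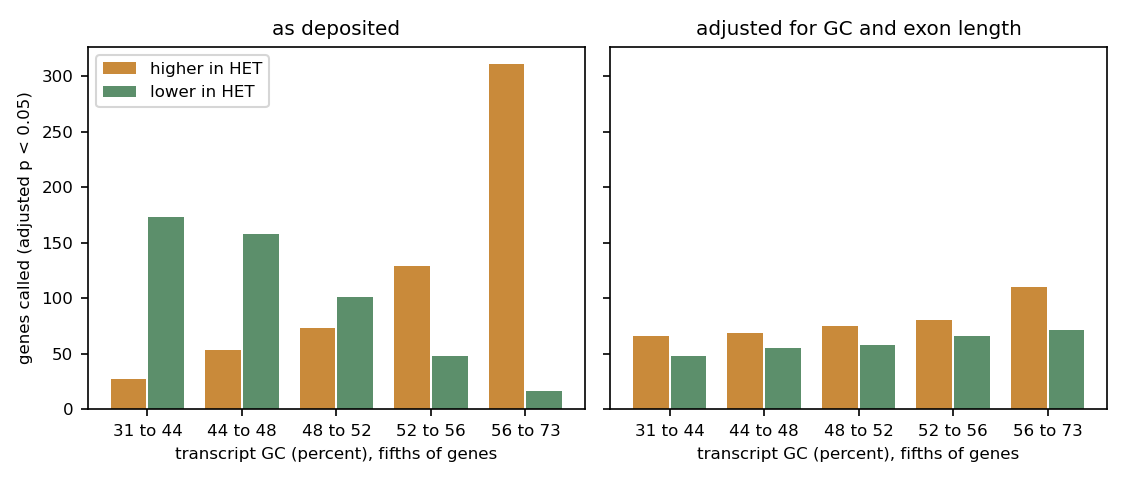
Number of genes called higher (orange) or lower (green) in HET than in WT littermates in each quintile of genes by transcript GC content, from the deposited values (left) and after adjustment of each litter's differences for GC and exon length (right). As deposited, the highest quintile holds 311 genes called higher and 16 lower, and after adjustment it holds 110 and 71.

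After *Chd8*, the gene with the smallest p was *Hmgb3*, which encodes a high mobility group protein that binds DNA in chromatin. *Hmgb3* had lowest, median and highest levels of 13.70, 13.93 and 14.35 in HET mice, against 13.97, 14.44 and 14.93 in WT mice, and the ranges overlapped while all 10 litters were lower, at −0.47 (SE 0.032, adjusted p = 5.36e-05). *Usp11*, a deubiquitinating enzyme, had 9.97, 10.32 and 10.54 in HET mice, against 10.49, 10.71 and 10.91 in WT mice, and a difference of −0.41 (SE 0.043, adjusted p = 0.00145) with 10 of 10 litters lower. *Abca8a*, an ATP-binding cassette transporter, had 7.39, 7.58 and 7.92 in HET mice, against 7.95, 8.12 and 8.26 in WT mice. Its highest HET mouse lay below the lowest WT mouse, and the difference was −0.48 (SE 0.046, adjusted p = 0.000924). *Hmgb3* and *Usp11* were called under 26 of 26 alternative settings and *Abca8a* under 25 of 25, and all 3 after the GC and length adjustment.

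Several other genes were lower in the HET mouse of all 10 litters. *Plk4*, the kinase that starts centriole duplication, had levels of 8.66, 8.88 and 9.13 in HET mice, against 8.94, 9.25 and 9.39 in WT mice, and differed by −0.35 (SE 0.048, adjusted p = 0.00612). *Dsn1*, a kinetochore subunit, had 7.12, 7.56 and 7.76 in HET mice, against 7.79, 8.01 and 8.18 in WT mice. The 2 ranges of *Dsn1* did not overlap, and the difference was −0.47 (SE 0.067, adjusted p = 0.00668), with litter L at −1.03. *Hnmt* encodes histamine N-methyltransferase, which inactivates histamine in the brain, and differed by −0.23 (SE 0.031, adjusted p = 0.00608). *Orai2*, a subunit of store-operated calcium channels, differed by −0.24 (SE 0.032, adjusted p = 0.0061), with 10 of 10 litters lower. *Tgm3*, a transglutaminase, differed by −0.45 (SE 0.049, adjusted p = 0.00227), and its HET levels of 6.72, 6.89 and 7.15 overlapped the WT levels of 7.14, 7.33 and 7.59 by 0.01 only. Others that were lower in all 10 litters were *Galnt6* (−0.26, SE 0.03), an enzyme of O-glycosylation, *Rtkn2* (−0.32, SE 0.04), *Pstpip2* (−0.41, SE 0.051), *Prune2* (−0.24, SE 0.034) and 2 non-coding transcripts, the lincRNA *5330434G04Rik* (−0.37, SE 0.033) and the antisense transcript *A230009B12Rik* (−0.49, SE 0.054).

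The genes that were higher included enzymes and markers of astrocytes. *Aldh1l1*, a folate enzyme and astrocyte marker, had lowest, median and highest levels of 11.05, 11.34 and 11.53 in HET mice, against 10.81, 11.15 and 11.30 in WT mice, and was higher in 10 of 10 litters by 0.22 (SE 0.03, adjusted p = 0.00608). *Fgfr3*, a fibroblast growth factor receptor of astrocytes, had 8.31, 8.72 and 9.00 in HET mice, against 8.07, 8.40 and 8.77 in WT mice, a difference of 0.22 (SE 0.031, adjusted p = 0.00612). *Rlbp1*, a retinal-binding protein, differed by 0.33 (SE 0.043, adjusted p = 0.00482). For these 3 genes the HET and WT ranges overlapped and each of 10 pairs had the same order. *Csad*, which makes the taurine precursor hypotaurine, differed by 0.33 (SE 0.041, adjusted p = 0.00394), and *Mpst*, a sulfurtransferase that handles cysteine-derived sulfur, by 0.31 (SE 0.039, adjusted p = 0.00421).

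*Tacc3*, which stabilises spindle microtubules, had levels of 9.13, 9.29 and 9.45 in HET mice, against 8.79, 8.98 and 9.23 in WT mice, a difference of 0.31 (SE 0.036, adjusted p = 0.00243). *Kif4*, a chromosome-bound kinesin, had 9.58, 10.11 and 10.78 in HET mice, against 9.25, 9.52 and 10.04 in WT mice, and was higher in 9 of 10 litters by 0.55 (SE 0.078, adjusted p = 0.00654). *Dnajc4*, a member of the DNAJ family, had 5.33, 5.60 and 5.73 in HET mice, against 4.68, 5.16 and 5.42 in WT mice, a difference of 0.46 (SE 0.052, adjusted p = 0.00243). In each of these genes the ranges of HET and WT mice overlapped and littermates kept 1 order, apart from the exception in *Kif4*. *Rps4l* showed a difference of 0.58 (SE 0.068, adjusted p = 0.00258), but it is close in sequence to *Rps4x*, so reads may have been split between them and its value is uncertain. *Padi2* (0.30, SE 0.03), a peptidylarginine deiminase, *Proca1* (0.29, SE 0.036), *Pdlim2* (0.36, SE 0.049), *Nkiras2* (0.25, SE 0.035), an inhibitor of NF-kappa-B signaling, and *A230056J06Rik* (0.47, SE 0.056) were higher in all 10 litters. *Fam151b* (0.41, SE 0.054) was higher in 9 and at −0.033 in litter M.

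The promoters of 4 of these genes are shown because CHD8 binds near start sites and the genes moved in both directions. Each run holds 250 bases before and 50 bases after the start site in RefSeq (GRCm38.p6), read 5′ to 3′ on the strand of the gene. Capitals mark the 3 motifs searched on both strands: ETS (CCGGAAGT or ACTTCCGG), YY1 (AAGATGGC or GCCATCTT) and NRF1 (CGCATGCG, its own reverse complement). *Chd8* (chr14:52257711-52258010, minus strand) and *Usp11* (chrX:20703659-20703958, plus strand) were lower, as was *Plk4* (chr3:40799701-40800000, plus strand), and *Egfl6* (chrX:166585667-166585966, minus strand) was higher.
*Chd8*: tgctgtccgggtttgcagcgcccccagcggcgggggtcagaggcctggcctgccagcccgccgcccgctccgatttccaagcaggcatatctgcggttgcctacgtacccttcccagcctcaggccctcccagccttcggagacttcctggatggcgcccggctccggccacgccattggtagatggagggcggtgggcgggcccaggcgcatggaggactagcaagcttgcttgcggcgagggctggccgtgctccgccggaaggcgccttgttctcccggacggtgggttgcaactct
*Usp11*: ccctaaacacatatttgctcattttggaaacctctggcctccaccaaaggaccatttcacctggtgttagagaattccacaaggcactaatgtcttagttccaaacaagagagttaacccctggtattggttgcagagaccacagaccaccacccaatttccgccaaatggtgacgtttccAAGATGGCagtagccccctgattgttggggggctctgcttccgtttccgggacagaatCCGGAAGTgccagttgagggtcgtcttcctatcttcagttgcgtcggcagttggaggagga
*Plk4*: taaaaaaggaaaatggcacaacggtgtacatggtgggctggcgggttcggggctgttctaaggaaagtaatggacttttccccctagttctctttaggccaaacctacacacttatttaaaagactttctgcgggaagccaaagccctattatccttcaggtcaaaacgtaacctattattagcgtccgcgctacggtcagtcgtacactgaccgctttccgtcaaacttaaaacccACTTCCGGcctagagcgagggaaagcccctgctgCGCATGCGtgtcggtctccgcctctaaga
*Egfl6*: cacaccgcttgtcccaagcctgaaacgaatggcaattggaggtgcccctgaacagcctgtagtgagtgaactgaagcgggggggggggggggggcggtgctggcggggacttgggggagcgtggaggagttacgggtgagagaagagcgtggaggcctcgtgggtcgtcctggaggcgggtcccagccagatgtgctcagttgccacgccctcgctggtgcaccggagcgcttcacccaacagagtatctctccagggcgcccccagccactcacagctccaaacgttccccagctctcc
The ETS motif begins at −11 from the start site in *Usp11* and at −13 in *Plk4*. *Usp11* also holds the YY1 letters at −69 and *Plk4* the NRF1 letters at 21, and none of these letters are in the windows of *Chd8* and *Egfl6*. GC content was 69.3% of the *Chd8* window and 65.3% of the *Egfl6* window, against 50.7% for *Usp11* and 50% for *Plk4*. The ETS motif was in 10.2% of 489 promoters of genes called higher and 4.4% of 364 of genes called lower, beside 7.61% of the 11889 promoters of all genes tested. The NRF1 motif was in 5.52% of the higher, 1.65% of the lower and 3.72% of all genes with a promoter. The YY1 motif was in 4.91% of the higher, 6.04% of the lower and 4.55% of all. A match of letters is a description and does not show that a factor binds there. The median transcript GC was 55.9% for genes called higher, 45.8% for genes called lower and 49.7% for all genes tested. The part of base composition in these motif shares was not tested, and no shares were made for the calls after the GC and length adjustment.

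A list of core genes had been picked from mutants of several ages without DM, the oil litters used here among them, so it is no independent evidence for the oil litters. All 5 were called, against 7.09% of all genes. Besides *Chd8* and *Usp11*, *Egfl6*, a secreted protein with epidermal growth factor repeats, had levels of 5.75, 6.17 and 6.40 in HET mice, against 5.26, 5.68 and 6.00 in WT mice, and was higher by 0.44 (SE 0.055, adjusted p = 0.00394) in 10 of 10 litters. *Wars2*, the mitochondrial tryptophan tRNA synthetase, was higher by 0.25 (SE 0.052, adjusted p = 0.0231) in 9 litters. *Crlf2*, a cytokine receptor subunit, was higher by 0.51 (SE 0.14, adjusted p = 0.0484) in 9 litters, with levels of 4.73, 5.43 and 6.02 in HET mice, against 4.37, 4.83 and 5.55 in WT mice. After the GC and length adjustment *Crlf2* stood at 0.33 (adjusted p = 0.145), and it was called under 8 of 24 alternative settings. A second list holds genes measured by RT-qPCR, of which *Kdr* and *Ptprb* had been picked from DM-exposed mice of this age and are not independent evidence here, and others from oil litters or from PND 5. Of its 12 genes, *Smug1* (0.12, SE 0.032, adjusted p = 0.041) and *Rpa2* (0.17, SE 0.043, adjusted p = 0.0406), which act in DNA repair, were higher and 0 were lower. After the GC and length adjustment 4 were higher and 0 lower, with *Apc* (0.19, adjusted p = 0.0276), a part of the beta-catenin destruction complex, and *Xrcc4* (0.19, adjusted p = 0.0407), a DNA end-joining factor, joining both. Apart from the adjustments for GC and length, *Apc* was called under 0 of 26 alternative settings and *Xrcc4* under 2 of 26. Values of the vascular genes *Kdr*, a receptor of vascular endothelial growth factor, and *Ptprb*, a receptor phosphatase, were −0.067 (SE 0.10, adjusted p = 0.687) in *Kdr* and −0.20 (SE 0.067, adjusted p = 0.0832) in *Ptprb*. *Slc22a8*, an organic anion transporter, was at −0.22 (SE 0.062, adjusted p = 0.0523), and none of these passed the test. A list of 8 genes picked for lower levels after DM had 0 called in limma and 4 at an unadjusted p under 0.05.

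Several chromatin remodelers were lower in HET mice. Of 9 CHD genes tested, 4 were lower and 0 higher, with a median of −0.10 against −0.012 for all genes. Besides *Chd8* these were *Chd2* (−0.12, SE 0.029, adjusted p = 0.0384), *Chd6* (−0.12, SE 0.03, adjusted p = 0.0382) and *Chd4* (−0.10, SE 0.026, adjusted p = 0.0419), helicases of the same family. Of 21 other remodelers 5 were lower and 0 higher: *Bptf* (−0.17, SE 0.033), the large subunit of the NURF complex, lower in 10 of 10 litters, *Pbrm1* (−0.17, SE 0.042), a subunit of PBAF, *Atrx* (−0.19, SE 0.047), *Baz2b* (−0.18, SE 0.047) and *Ino80* (−0.13, SE 0.035). Histone methyltransferases and demethylases had 2 lower of 35, *Kmt2e* (−0.14, SE 0.031) and *Nsd3* (−0.11, SE 0.031), and 0 higher. After the adjustment for GC and length the counts lower were 2 for CHD genes, *Chd8* and *Chd4*, 1 for the other remodelers, *Bptf*, and 0 for the histone enzymes. Without litter V the counts without that adjustment were 4 of 9 CHD genes and 6 of 21 other remodelers lower, where 6.57% of all genes were.

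Among genes of the sodium channels that pyrethroids act on, calls ran mostly downward. Of 15 tested, 4 were lower and 1 higher, with a median of −0.10. *Scn2a*, the main sodium channel of excitatory neurons, had lowest, median and highest levels of 12.53, 12.99 and 13.40 in HET mice, against 12.80, 13.01 and 13.64 in WT mice, and was lower in 8 of 10 litters, at −0.18 (SE 0.043, adjusted p = 0.0335). *Scn3a*, a channel most prominent in the young brain, was lower, at −0.19 (SE 0.051, adjusted p = 0.0454). Among auxiliary subunits, *Scn2b* had 5.21, 5.91 and 6.52 in HET mice, against 5.53, 6.10 and 6.55 in WT mice, and was lower in 10 litters, at −0.19 (SE 0.037, adjusted p = 0.019), as was *Scn3b* (−0.16, SE 0.032, adjusted p = 0.022). The transcripts differ in GC content, 50.5% in *Scn2b* against 43.4% in *Scn2a* and 42.1% in *Scn3a*. After the adjustment *Scn2b* stood at −0.19 (adjusted p = 0.0158), *Scn2a* at −0.11 (adjusted p = 0.0681) and *Scn3a* at −0.12 (adjusted p = 0.116). The list then held 2 genes lower, *Scn2b* and *Scn3b*, and 0 higher.

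Calls among other channel and receptor genes ran in both directions. Of 18 calcium channel genes, *Cacna1c* (−0.13, SE 0.031), a pore subunit of L-type channels, and *Cacna2d1* (−0.16, SE 0.039) were lower and *Cacnb3* (0.17, SE 0.044) was higher. Of 32 potassium channel genes 3 were higher, *Kcnh3* (0.24, SE 0.057), *Hcn2* (0.19, SE 0.039) and *Kcnab2* (0.14, SE 0.028), and 0 lower, while the list's median was −0.049. Of 18 GABA and glycine receptor genes 2 were lower, including *Glra2* (−0.19, SE 0.053), a subunit of glycine receptors, and 0 higher. No glutamate receptor gene of 23 passed the test in limma (10 at an unadjusted p under 0.05), and *Grm2* (0.18, SE 0.052) and *Grik5* (0.18, SE 0.054) had the smallest p. After the GC and length adjustment *Kcnh3* had an adjusted p of 0.0413, and the other channel and receptor genes named beside it had adjusted p-values from 0.0682 to 0.799. *Cacng3* (−0.13, adjusted p = 0.0148), an AMPA receptor auxiliary subunit, was then the 1 calcium channel gene lower.

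Genes of the synapse and of cell recognition were mixed. Of 37 presynaptic vesicle genes 4 were lower and 0 higher. *Syn2*, a phosphoprotein that tethers vesicles, had levels of 10.82, 11.15 and 11.39 in HET mice, against 10.99, 11.29 and 11.45 in WT mice, and was lower in 10 litters, at −0.13 (SE 0.027, adjusted p = 0.0239). *Vamp2*, the vesicle SNARE of neurons, was lower in 10 litters, at −0.11 (SE 0.024, adjusted p = 0.0284), and *Syt1* (−0.14, SE 0.037) and *Syt4* (−0.16, SE 0.041), synaptotagmins, were lower too. Of 29 postsynaptic and adhesion genes, the scaffolds *Dlgap3* (0.30, SE 0.078) and *Shank3* (0.26, SE 0.059, adjusted p = 0.0291) were higher and 2 genes were lower, including the neurexin *Nrxn3* (−0.19, SE 0.036, adjusted p = 0.019). Clustered protocadherins, which give neurons their surface identity, had 8 lower and 1 higher, *Pcdhgc3* (0.14, SE 0.032), of 57, with a median of −0.073. *Pcdhga9* (−0.21, SE 0.037) was lower in 10 litters, *Pcdhga10* (−0.21, SE 0.046) in 10 and *Pcdha8* (−0.20, SE 0.044) in 9. Their transcripts share the last exons within a cluster, so reads may have been divided among members. After the adjustment, 5 protocadherins of 55 were lower and 1 higher, and 3 presynaptic genes were lower, *Syn2*, *Vamp2* and *Syn1* (−0.12, adjusted p = 0.037). *Shank3* and *Nrxn3* kept their calls. Of 47 autism risk genes other than *Chd8*, 7 were lower and 1 higher, with a median of −0.085. The higher gene was *Shank3*, and the lower ones included *Scn2a*, *Chd2* and *Tnrc6b* (−0.14, SE 0.037), which acts in silencing by microRNAs. After the adjustment *Shank3* was higher and 1 gene was lower, *Auts2* (−0.11, adjusted p = 0.0419). Without litter V the counts without that adjustment were 1 higher and 13 lower, where 6.94% of all genes were called higher and 6.57% lower.

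Calls among genes of the respiratory chain and of ribosomes were all higher before adjustment for GC and length. Of 68 oxidative phosphorylation genes 15 were higher and 0 lower, with a median of 0.076, and the median of the list was above 0 in 9 of 10 litters. *Ndufa2*, a subunit of complex I, had levels of 8.19, 8.84 and 9.20 in HET mice, against 7.85, 8.49 and 8.81 in WT mice, and was higher in 10 of 10 litters by 0.33 (SE 0.051, adjusted p = 0.00981). *Ndufb6* of the same complex was higher by 0.32 (SE 0.059, adjusted p = 0.0176), and in complex III *Uqcrq* was higher by 0.50 (SE 0.10, adjusted p = 0.0226) and *Uqcr11* by 0.37 (SE 0.076). Of 79 cytosolic ribosomal protein genes 14 were higher and 0 lower, with a median of 0.044. *Rpl13a* had 12.26, 12.71 and 13.29 in HET mice, against 11.77, 12.48 and 12.95 in WT mice, and was higher in 10 litters by 0.29 (SE 0.042, adjusted p = 0.00783). *Rpl36* (0.65, SE 0.12), *Rplp1* (0.39, SE 0.074) and *Fau* (0.32, SE 0.075) were higher in 9. The list's median ran from −0.14 to 0.20 between litters and was above 0 in 7 of 10 litters. Ribosomal protein genes have many processed pseudogenes, and reads may be shared with them. Of 72 genes for mitochondrial ribosomes and tRNA synthetases 11 were higher and 0 lower, among them *Mrps33* (0.22, SE 0.039), *Mrpl20* (0.22, SE 0.048), *Mrps12* (0.33, SE 0.081) and *Wars2*. After the adjustment the counts higher were 11, 9 and 8 in these 3 lists, with 1 gene lower, *Mrps34* (−0.12, adjusted p = 0.041). *Mrps12* then stood at 0.25 (adjusted p = 0.0794). Without litter V, which was picked after its values were seen, the counts higher were 23, 17 and 16 in the fit without the adjustment. In that fit 6.94% of all genes were called higher and 6.57% lower. These lists were not counted without each other litter.

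Of 98 DNA repair genes 5 were higher and 2 lower, near the background of 3.87% and 3.21%. *Recql*, a RecQ helicase, had levels of 9.67, 9.71 and 9.83 in HET mice, against 9.31, 9.55 and 9.77 in WT mice, and was higher in 10 of 10 litters by 0.18 (SE 0.037, adjusted p = 0.022). *Mlh3*, a mismatch repair protein, was higher by 0.21 (SE 0.046, adjusted p = 0.027), and *Neil1*, a glycosylase of oxidised bases, by 0.17 (SE 0.044, adjusted p = 0.0393). *Fancl*, the ubiquitin ligase of the Fanconi anemia pathway, was lower in 10 litters, at −0.21 (SE 0.034, adjusted p = 0.0123), and *Trp53bp1*, which binds at double-strand breaks, was at −0.11 (SE 0.03). After the adjustment 7 of the 98 genes were higher and 1 lower. *Neil1* then stood at 0.12 (adjusted p = 0.117) and *Trp53bp1* at −0.056 (adjusted p = 0.146). Among 52 genes for breaking down fatty and organic acids 4 were higher and 0 lower: *Acox3*, a peroxisomal oxidase (0.18, SE 0.028, adjusted p = 0.00903), *Bckdha* (0.23, SE 0.048) and *Mut* (0.15, SE 0.038) of amino acid catabolism, and *Acaa1a* (0.16, SE 0.034), a peroxisomal thiolase. After the adjustment 6 of them were higher and 0 lower.

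Chaperone genes gave few calls, and lists of this size would hold few at the share over all genes. That share was 3.87% higher and 3.21% lower, or 2.6% and 1.94% after the GC and length adjustment. *Hsp90ab1* (−0.14, SE 0.032, adjusted p = 0.0299), a cytosolic heat shock protein, and its cochaperone *Ptges3* (−0.11, SE 0.028) were lower among 38 cytosolic chaperones, whereas *Sec61b* (0.40, SE 0.10), of the channel into the endoplasmic reticulum, and *Atf6b* (0.16, SE 0.039), a stress-responsive transcription factor, were higher among 36 genes of the unfolded protein response. After the GC and length adjustment *Sec61b* stood at 0.34 (adjusted p = 0.0581) and *Atf6b* at 0.058 (adjusted p = 0.147), so that list had 0 higher and 1 lower, the transcription factor *Xbp1* (−0.14, adjusted p = 0.0417), and the cytosolic chaperones had 0 higher and 1 lower, *Hsp90ab1*. Of 35 genes of inherited neurodegenerative disease, 3 were higher, *Atp13a2* (0.36, SE 0.074, adjusted p = 0.0226), a lysosomal transporter, *Atn1* (0.19, SE 0.052) and *Apoe* (0.14, SE 0.034), while the microtubule protein *Mapt* (−0.10, SE 0.024) was among 2 lower. After the adjustment *Atn1* stood at 0.079 (adjusted p = 0.121) and *Apoe* at 0.045 (adjusted p = 0.373), and the list had 1 higher, *Atp13a2*, and 1 lower, *Mapt*. Of 74 protein kinases 4 were higher, including *Csnk1g2* (0.33, SE 0.059) and *Map2k2* (0.31, SE 0.079), and 4 lower, including *Camk2d* (−0.17, SE 0.041) and *Prkaa1* (−0.17, SE 0.042). After the adjustment 3 kinases were higher, *Csnk1g2*, *Map2k2* and *Akt2* (0.13, adjusted p = 0.041), and 0 lower. Of 24 cholesterol synthesis genes 2 were lower and 0 higher, and *Pmvk* (−0.10, SE 0.026), a kinase of the mevalonate pathway, was lower in all 10 litters. Cell-matrix adhesion genes had *Itgb5* (0.18, SE 0.031) and *Parva* (0.18, SE 0.03) higher and *Itga4* (−0.15, SE 0.037) lower of 42, and *Wnt5a* (−0.20, SE 0.053) was the only 1 of 61 Wnt genes called. *Usp11* was the only 1 of 46 deubiquitinating enzymes called, *Abca8a* of 12 ABCA transporters, *Hmgb3* of 10 high mobility group genes and *Kif4* of 46 cell cycle genes, a list without *Plk4*, *Dsn1* and *Tacc3*, while 0 of 29 proteasome subunits passed in limma (4 at an unadjusted p under 0.05), with *Psmb5* (0.11, SE 0.042) and *Psmd1* (−0.091, SE 0.035) having the smallest p. After the adjustment 1 cholesterol gene was lower, *Pmvk*, and *Itgb5* and *Parva* stayed higher with 0 adhesion genes lower. *Wnt5a* stood at −0.16 (adjusted p = 0.0987), and the Wnt list had 1 higher, *Apc*, and 0 lower. *Usp11* and *Abca8a* kept their calls, the high mobility group list had 2 lower with *Hmgn2* (−0.17, adjusted p = 0.0372) added, and the cell cycle list had 1 higher, *Kif4*, and 2 lower, *E2f2* (−0.22, adjusted p = 0.0476) and *Cdkn1c* (−0.28, adjusted p = 0.0414).

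Markers of cell types were examined to see which moved with genotype. Astrocyte markers had 8 higher and 0 lower of 24, with a median of 0.07 and 9 of 10 litters above 0. Besides *Aldh1l1* and *Fgfr3* they included *Gfap*, the intermediate filament of astrocytes, with 8.71, 9.34 and 9.77 in HET mice, against 8.67, 9.08 and 9.60 in WT mice (0.20, SE 0.04, adjusted p = 0.0197), and the neurotensin receptor *Ntsr2* (0.24, SE 0.045). After the adjustment 6 astrocyte markers were higher and 0 lower, and *Gfap* stood at 0.17 (adjusted p = 0.0568). Without litter V, 8 were higher and 0 lower in the fit without the adjustment. Of all genes tested 3.87% were called higher with all litters, 2.6% after the adjustment and 6.94% without litter V. The astrocyte count thus stayed at 8 without litter V while the share over all genes rose. The oligodendrocyte lineage gave single calls: *Olig1* (0.25, SE 0.065) higher of 18 precursor markers, *Rras2* (−0.21, SE 0.043) lower of 13 markers of newly formed cells, and *Ppp1r14a* (0.38, SE 0.066) higher of 29 markers of mature cells and myelin. After the adjustment *Olig1* stood at 0.14 (adjusted p = 0.11) and *Ppp1r14a* at 0.25 (adjusted p = 0.0536). The precursor list then had 0 higher and 1 lower, *Gpr17* (−0.17, adjusted p = 0.0477), the newly formed list 0 higher and 2 lower, *Rras2* and *Gpr17*, and the mature list 1 higher, *Apc*, and 0 lower. Of 21 excitatory neuron markers *Emx1* (0.30, SE 0.073) was higher and *Rasgrf2* (−0.12, SE 0.031) lower, with 0 and 0 after the adjustment, and inhibitory neuron and microglia markers had 0 called of 23 and 22 in limma (9 and 7 at an unadjusted p under 0.05), with *Reln* (−0.16, SE 0.052) and *C1qb* (0.14, SE 0.041) having the smallest p of each.

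The medians of several marker lists varied widely between litters. Immediate early genes, whose transcripts appear within minutes of neuronal activity, had 0 of 23 called in limma (2 at an unadjusted p under 0.05), where *Jund* (0.28, SE 0.10) had the smallest p, and their median ran from −0.62 to 0.74 over litters. Striatal markers had 0 of 17 called in limma (1 at an unadjusted p under 0.05), with litter medians from −0.53 to 0.40. Meningeal fibroblast markers had litter medians from −0.59 in litter G to 0.10, with *Ogn* (−0.24, SE 0.062), a small proteoglycan, lower. Vascular endothelial markers had *Podxl* (−0.23, SE 0.054) lower and *Egfl7* (0.20, SE 0.045) higher of 34, and *Myh11* (−0.27, SE 0.057), the myosin of smooth muscle, was the 1 mural marker lower of 15. The hemoglobin genes *Hbb-bs* (0.33, SE 0.082) and *Hba-a2* (0.59, SE 0.16) were higher, with litter medians of 13 blood markers from −0.015 to 0.42, and each has a near-identical copy with which reads may be shared. After the GC and length adjustment *Podxl*, *Egfl7* and *Myh11* kept their calls, and the meningeal and blood lists had 0 called. The part of these shifts in the calls above was not tested.

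**Figure D3:**
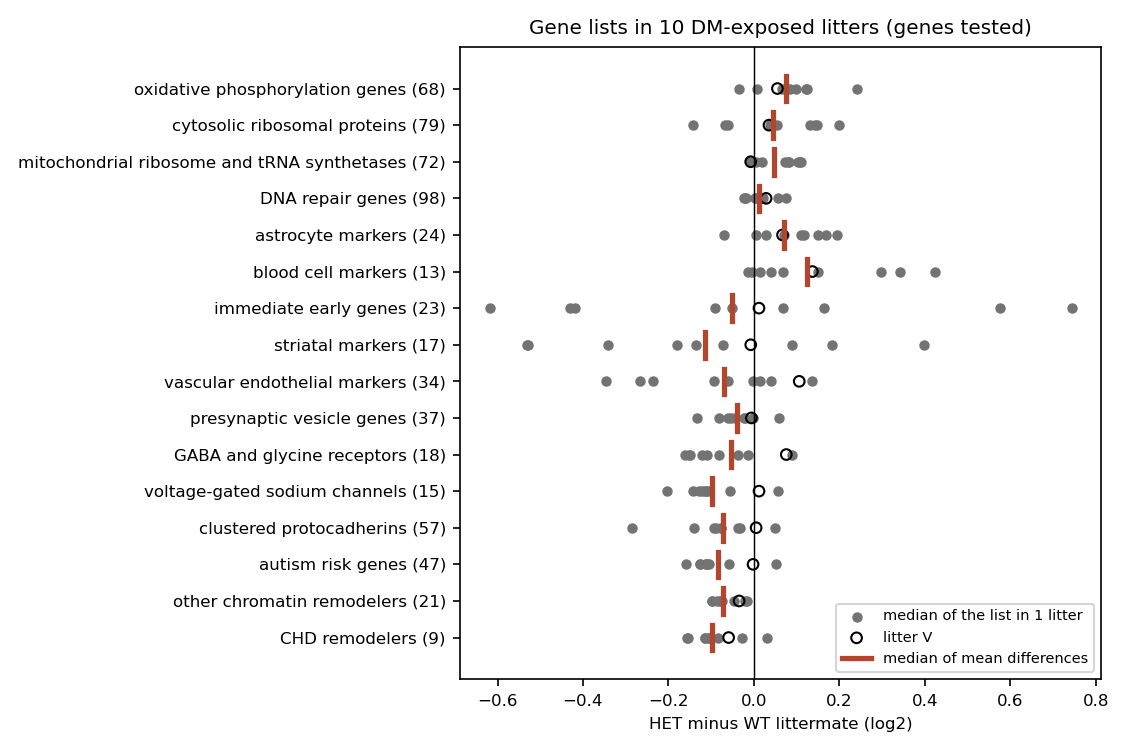
Median HET minus WT difference (log2) of 16 gene lists in each of 10 DM-exposed litters (grey points, litter V as an open circle), with the median of the mean differences as a red bar and the number of genes tested in brackets. The median of oxidative phosphorylation genes lay above 0 in 9 litters, and immediate early genes spread from −0.62 to 0.74.

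The same model in the 9 oil litters called 7 of 15637 genes (0.0448%), 4 higher and 3 lower, and 2744 at an unadjusted p under 0.05. *Chd8* (−0.61, SE 0.057, adjusted p = 0.00416), *Hmgb3* (−0.38, SE 0.049, adjusted p = 0.0303) and *Usp11* (−0.43, SE 0.057, adjusted p = 0.0303) were called there, and so was *Chmp2a*, an ESCRT-III subunit, which differed by 0.22 (SE 0.033, adjusted p = 0.00902) in the DM litters and by 0.26 (SE 0.036, adjusted p = 0.0431) in the oil litters. The other 3 called in oil litters were *1600002K03Rik*, at 0.18 in DM litters and 0.39 in oil litters, *Selenov*, at 0.15 and 0.34, and *Gm1943*, at −0.024 and 0.34. Without single oil litters the count ran from 1 to 15. Of the genes called higher in DM litters, 570 of 584 tested in oil litters lay above 0 there, and of those called lower, 469 of 483 lay below 0. That is the same sign in 97.5% of called genes, against 73% of all 14751 genes tested in both. *Abca8a* differed by −0.48 in DM litters and −0.47 in oil litters, *Egfl6* by 0.44 and 0.38, *Tacc3* by 0.31 and 0.16, and *Pdlim2* by 0.36 and 0.075.

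**Figure D4:**
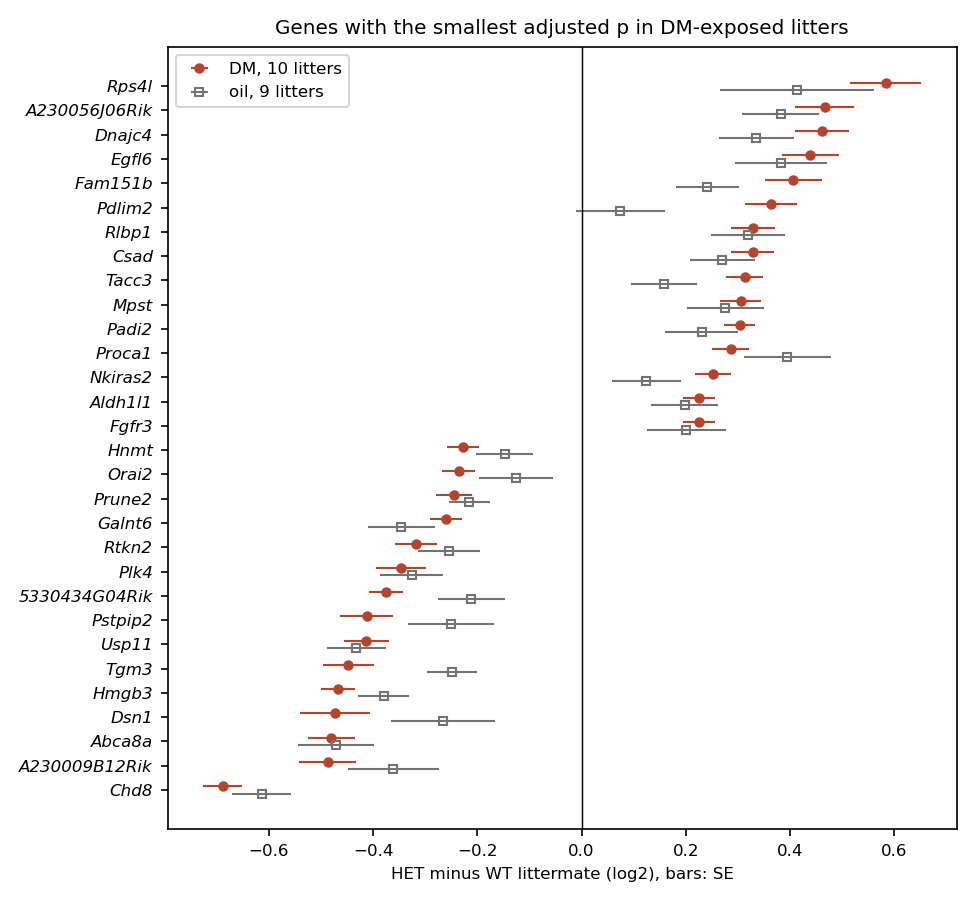
Mean HET minus WT difference (log2) with its SE for *Chd8* and the genes with the smallest adjusted p in DM-exposed litters, in the DM litters (red circles, 10 pairs) and in the oil litters (grey squares, 9 pairs) of the same age. The signs match for every gene shown, and *Pdlim2* has the smallest oil difference of those higher, 0.36 after DM against 0.075.

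Whether genotype acted differently after DM was tested by the difference between the DM and the oil litters. limma called 0 of 14751 genes (0%), with 558 at an unadjusted p under 0.05, and 0 under each alternative tried. The DM and oil litters are thus not shown to differ in any gene, although 1100 genes were called in one and 7 in the other. The smallest adjusted p was 0.818. The smallest unadjusted p belonged to *Gm3219* (p = 6.45e-05), at −0.15 in DM litters and 0.27 in oil litters, and *Lrrc46* (p = 0.000111), at 0.34 and −0.18. *Stat5a*, a transcription factor of cytokine signaling, had 0.24 after DM and −0.042 after oil, *Trp73*, a relative of p53, −0.34 and 0.22, and *Omd*, a matrix proteoglycan, −0.43 and 0.052. In DM-exposed mice of PND 5 (10 HET and 12 WT), none of the following passed the test: *Chd8* differed by −0.47 (SE 0.10, adjusted p = 0.189), *Hmgb3* by −0.12 (SE 0.049, adjusted p = 0.555) and *Dnajc4* by 0.36 (SE 0.067, adjusted p = 0.0882). At that age 2 of 15522 genes (0.0129%) were called, *Pgap3* (0.26, SE 0.032, adjusted p = 0.0065) and *Tdrd1* (0.64, SE 0.082, adjusted p = 0.0065), which at 12 months were at 0.14 (SE 0.053, adjusted p = 0.122) and 0.092 (SE 0.083, adjusted p = 0.502).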

How the data were processed

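For stranded polyA libraries, the authors cut adapters with cutadapt 1.12, mapped reads to mm10 by STAR 2.5.2b, estimated abundance by Salmon and variance-stabilized it in DESeq2. The deposited values are on a log2 scale after that transformation and after the authors' removal of technical terms. Over the whole table, slopes of the values on dissector, sex, litter number and batch are about 0, and these terms are equal within a pair. The transformation flattens low counts, so differences of low genes are understated. The deposited table of the 18-month mice was not used here.

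Groups came from the labels. R 4.3.3 with limma 3.58.1 fitted genotype with the litter as a factor to the 20 DM mice, without an intensity trend, and the interaction to 38 mice. The labels give each litter 1 mouse per genotype, which pairs them. Residuals of littermates had a median correlation of 0.039 (−0.079 to 0.40), and other HET and WT mice of a batch −0.32. No libraries shared identical values. Positions, lengths and GC come from GENCODE M21, and 15364 of the genes tested had them. Python 3.11.15 with matplotlib 3.10.9 drew the figures.

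Named genes are *Chd8*, the 15 genes of lowest adjusted p in each direction, genes named by the study, up to 4 called members of each list with the largest difference (or 2 with the smallest p), and 6 genes with the smallest interaction p. Genes called in the oil litters or at PND 5, the neighbours of *Chd8*, and *Scn3b*, *Mapt*, *Ino80*, *Pcdhgc3*, *Auts2*, *Trp53bp1*, *Mrps34*, *Xbp1*, *Gpr17*, *Hmgn2*, *E2f2*, *Cdkn1c*, *Cacng3*, *Syn1* and *Akt2* were added after their values were seen. Some named genes are not reported here. Members and lists were chosen with earlier results of these data known. Alternatives covered the block, the samples fitted, the filter, the variance model, scaling, weights, and leaving out litters or batches.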

Additional observations from a re-analysis of the deposited data

Results flagged for a closer look

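Over 555 sets of 10 values (levels and differences of the named genes, list medians and litter summaries), 17 had a lowest or highest value whose gap to the next was past Dixon's limit for 10 values, as a share of the range. About 1 in 20 such sets is marked in this way by chance. Among the differences, litter L was lowest for *Dsn1* at −1.03 and for *Pcdhga10* at −0.59, and highest for *Baz2b* at 0.15. Litter J was lowest for *Wnt5a* at −0.63, litter M lowest for *Fam151b* at −0.033 and litter U highest for *Neil1* at 0.48. Among levels in HET mice, litter A was highest for *Orai2* at 11.98, for *Rpa2* at 9.31 and for *Hmgn2* at 14.22. Among levels in WT mice, litter V was lowest for *Smug1* at 9.80, litter A lowest for *Acox3* at 8.30, litter G highest for *Podxl* at 9.53 and *Psmd1* at 12.84, and litter L highest for *Arhgef40* at 10.26. Of the list medians, meningeal fibroblast markers were at −0.59 in litter G, inhibitory neuron markers at −0.26 in litter L and high mobility group genes at −0.21 in litter M. The causes were not tested.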

How the results depend on the processing

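The count of 1100 genes called fell to 243 with no replicate block (genotype and batch), to 552 with no block over all 82 libraries and to 645 with the litter block over all 38 mice of 12 months. It was 2082 with the block over all 82 libraries and 2372 with array weights. With the block and the GC and length adjustment it was 698. Without 1 litter it ran from 230 to 2097, and without batch 1, 2, 3 or 4 it was 46, 30, 52 or 299. Fewer mice enter those fits. Other settings gave 741 to 1613 genes, the lowest with 19068 genes tested, those that differ within at least 1 pair. With a mean of at least 8, 692 were higher and 904 lower. In the oil litters, where the main count was 7, it ran from 1 to 15 without 1 litter. The interaction gave 0 genes under every alternative run. No named gene reversed. *Apc*, *Syn1* and *Cdkn1c*, called after the GC and length adjustment, were called under 0 of 26 alternative settings that did not adjust for GC or length. *Mrps34* was called under 0 of 25 of them. Of 134 named genes called with the litter block, 49 kept their call with no block, 24 to 57 without 1 batch and 50 to 133 without 1 litter, and 84 of 132 did after the GC and length adjustment. The precision is set by 10 pairs, and depth is unknown.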

Other observations

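Other gene lists gave few calls, and at the 7.09% called of all genes tested, lists this small would hold few. Dopamine signaling had 0 of 15 called in limma (1 at an unadjusted p under 0.05), with a median of −0.071 and *Gnal* (−0.08, SE 0.032), a G protein subunit, at the smallest p. Of 29 genes of pyrethroid metabolism, 8 passed the filter on ties and 0 were called (1 at an unadjusted p under 0.05), with *Cyp3a13* (−0.34, SE 0.11, adjusted p = 0.0742), a cytochrome P450, at the smallest p. Hippocampal markers had 0 of 14 and choroid plexus markers 0 of 12 called (2 and 1 at an unadjusted p under 0.05), with medians of −0.032 and −0.11, and *Prox1* (−0.11, SE 0.035) and *Kcnj13* (−0.24, SE 0.09) at the smallest p. Of 16 SR splicing factors *Srsf12* (−0.19, SE 0.05) was lower, and the median was −0.085. Of 560 genes tested on chromosome X, 8 were called higher and 34 lower, beside 3.87% and 3.21% of all genes tested.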
